A study of Homo sapiens with 26 samples.

Results

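Binding of the glucocorticoid receptor (GR) to chromatin was compared between A549 cells given interleukin-1β together with budesonide (I+B) and untreated cells (NS), both infected with the control adenovirus Ad-GFP, at 10740 of the 10740 regions in the authors' table. Every region of the table was a member, and no measured value was used here to choose among them. The authors label the regions GBRs, taken here as GR binding regions, and how they selected them is not known here. If they were selected for GR signal in treated cells, higher signal there than in NS cells follows in part from that choice. For each region the difference was the I+B value minus the NS value of the same region, both on the authors' log2 scale. A549 is an established human lung carcinoma line with features of type II alveolar epithelium.

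I+B cells received 300 nM budesonide and 1 ng/ml IL1B for 1 h, and NS cells received neither. Further GR groups used here for comparison were Ad-GFP cells given 300 nM budesonide alone (Bud), and I+B and NS cells that had received Ad-IκBαΔN, a virus expressing a degradation-resistant form of the NF-κB inhibitor IκBα, in place of Ad-GFP. The remaining GR group, Ad-IκBαΔN cells given 300 nM budesonide alone, was used only in means over the 6 GR groups. All groups thus carried an adenovirus, so no value describes uninfected A549 cells. Of 26 libraries, 12 were made with a GR antibody, 2 from independent experiments in each group, and the 14 other libraries, of RELA and input, were not analysed here. The table gave 1 value per region and group with both libraries combined, so no difference below has a replicate check, and no SD, n or p-value is given for one.

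GR is a ligand-activated transcription factor that enters the nucleus when a glucocorticoid such as budesonide binds it, and it attaches to glucocorticoid response elements (GREs), imperfect palindromes with a pair of arms around a short spacer. IL1B is an inflammatory cytokine that frees NF-κB dimers, among them those holding RELA, from IκBα, and these dimers bind κB motifs near inflammatory genes. In airway epithelium, glucocorticoids are known to raise anti-inflammatory genes such as DUSP1 and to restrain many NF-κB-driven genes, and GR can also be found at sites without a GRE.

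The sequences below are motif matches in the lead region of listed genes, where the lead region is the linked region with the highest mean value over the 6 GR groups. They show what lies in regions with a high difference between I+B and NS cells and, for the last 2, in regions with a low one. All were read from hg38 and are written 5′ to 3′ on the strand given. Capitals mark the AP-1 motif, the κB motif or the arms of the GRE, whose spacer stays in lower case.
CXCL8 promoter, AP-1 (chr4:73740421-73740449, plus): aggaagtgtgaTGACTCAggtttgccctg
TRAF3 promoter, κB (chr14:102777519-102777548, plus): cagcccagccGGGACTTTCCagccggcggc
MAFF, κB (chr22:38180232-38180261, minus): ctccccaaaaGGGAGTTTCCctcttactca
KLF4, κB (chr9:107539567-107539596, plus): tggcaatctgGGGAAATCCCaaaggaccaa
CX3CL1, κB (chr16:57388598-57388627, plus): atgaatggctGGGAATTTCCtgcttgaggt
NFKB2 promoter, κB (chr10:102394490-102394519, plus): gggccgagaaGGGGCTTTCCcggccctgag
C3, GRE (chr19:6720926-6720954, plus): tagtggaAGAACActaAGGTCTggagaac
DDIT4, GRE (chr10:72248975-72249003, plus): tacactgAGAACAttgTGTTCTggctgag
ERRFI1, GRE (chr1:8071096-8071124, plus): atttacaAGTACAtttCGTTCTgggccag
FKBP5, GRE (chr6:35722528-35722556, plus): tcttgctGGAACAcgaGGTTCTgcaccat
PECAM1, GRE (chr17:64385799-64385827, plus): aggtaagAGAACAgcgTGTCCCaggacac
KLF15, GRE (chr3:126284593-126284621, plus): tcattatCAAACActaTGTTCTgtacata
The DDIT4 match has 0 mismatches to the GRE searched, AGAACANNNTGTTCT, and the other GRE matches shown have 2 in its 12 fixed bases. A match describes letters in the reference and is not evidence of binding to them.

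The 2 highest I+B values of all regions fell on stretches of repeated sequence that carry several κB matches. The region 20.5 kb from the SERPINA2 start site had a signal of 1520.4 in I+B cells and 21.1 in NS cells, and the region 1.65 kb from the start of FSTL3, a secreted activin-binding glycoprotein, had 990 in I+B cells and 22.8 in NS cells. The first holds 7 κB matches in its 400 bp and the second 10, counting overlapping matches, and their central 250 bases are shown with κB matches in capitals.
SERPINA2 region (chr14:94346027-94346276, plus): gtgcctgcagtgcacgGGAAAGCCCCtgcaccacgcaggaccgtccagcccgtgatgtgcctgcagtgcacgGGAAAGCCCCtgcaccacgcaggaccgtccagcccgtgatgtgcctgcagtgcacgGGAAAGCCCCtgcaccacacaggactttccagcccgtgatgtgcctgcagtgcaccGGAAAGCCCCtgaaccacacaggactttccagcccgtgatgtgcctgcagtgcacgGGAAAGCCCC
FSTL3 region (chr19:674621-674870, plus): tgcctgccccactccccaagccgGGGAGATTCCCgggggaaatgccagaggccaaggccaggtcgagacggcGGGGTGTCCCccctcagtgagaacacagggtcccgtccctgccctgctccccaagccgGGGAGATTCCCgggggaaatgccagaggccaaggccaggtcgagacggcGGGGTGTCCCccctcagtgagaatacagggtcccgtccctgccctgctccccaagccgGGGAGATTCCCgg
Both windows repeat with a fixed spacing. Over the whole 400 bp, a shift of 56 bp matches 92.7% of the bases in the SERPINA2 region, and a shift of 107 bp matches 92.5% in the FSTL3 region. The windows shown were chosen after the values were seen. In Bud cells the signal was 7.85 at the SERPINA2 region and 9.13 at the FSTL3 region. The region with the next highest I+B value (chr14:94599138-94599537) differed from both. It holds 1 κB match and had 817 in I+B cells, 443 in Bud cells and 11.0 in NS cells. With 4 or more κB matches there were 33 regions, whose median difference was 2.86, and 2257 regions with 1 to 3 matches had a median of 2.84. Regions without a κB match, 8450 in number, had a median of 2.38. The median difference was thus much the same with 4 or more κB matches as with 1 to 3.

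GR signal was higher in I+B cells than in NS cells at nearly every region of the authors' table. The part that the authors' selection of GR binding regions has in this was not tested. The signal is the mean coverage per base on the authors' scale, obtained as 2 raised to the deposited value minus 1, and its median over regions was 45.7 in I+B cells and 7.58 in NS cells. The median difference was 2.49 on the log2(signal + 1) scale, with quartiles of 1.82 and 3.21 and a range of -0.77 to 6.95. A 2-fold difference was used as the call, a description and not a test, and 10066 regions, or 93.7%, were at least 2-fold higher in I+B cells. Regions at least 2-fold lower in I+B cells numbered 0, or 0%, and 40 regions had a difference below 0. Differences of 5 or more were seen at 191 regions, and 4024 regions lay between 2 and 3.

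These counts depend on the scale of the groups, which is not known. The I+B values fell on steps of 3 and the NS values on steps of 1, so the groups were scaled differently before deposit. The Bud values in Ad-GFP cells also fell on steps of 1. Comparisons of I+B with Bud signals below therefore hold on the deposited scale only, and their order at a region may change on another scale. After division of each group by its step, 5229 regions were at least 2-fold higher in I+B cells and 141 at least 2-fold lower, and the median difference was 0.97. A change of scale shifts all differences by nearly the same amount, so each region was also placed relative to the median region: 1956 regions (18.2%) lay at least 2-fold above it and 1664 (15.5%) at least 2-fold below. Lists and classes are read against those shares in what follows.

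The difference varied across regions mostly with the I+B values. Across regions the log2 values had an SD of 1.01 in I+B cells and 0.63 in NS cells, and the difference had an SD of 1.06. Over the 10740 regions the difference correlated with the I+B level at r = 0.82 (rho = 0.80) and with the NS level at r = -0.37 (rho = -0.36). Both are descriptions of quantities that share a term, since the level is part of the difference. In quintiles of the regions from the lowest to the highest NS signal, the median difference was 3.14, 2.63, 2.43, 2.24 and 2.02, while the median I+B signal was 38.2, 41.5, 45.1, 49.5 and 58.0. Regions with more GR signal in untreated cells thus had more in I+B cells too, but a smaller difference.

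The authors' classes of regions, increasing, unchanged and decreasing, separated along the difference between I+B and NS cells. The rule behind the classes is not known here, and if values of these GR groups or of Bud cells entered it, the separation follows in part from the choice. The 4345 increasing regions had a median signal of 63.6 in I+B cells and 7.69 in NS cells, with a median difference of 2.94. The 3411 unchanged regions had 45.4 in I+B cells and 7.64 in NS cells, with a median of 2.46. The 2984 decreasing regions had 27.7 in I+B cells and 7.33 in NS cells, with a median of 1.81. The NS medians of the classes lay close together, so the classes differed in their I+B signal. Of the increasing regions 29.4% lay at least 2-fold above the median region and 4.14% at least 2-fold below it. The shares were 17.1% and 12.9% in the unchanged class and 3.18% and 35.0% in the decreasing class. Even in the decreasing class, 2493 of 2984 regions were at least 2-fold higher in I+B cells than in NS cells as deposited, and 32 had a difference below 0. That direction holds on the deposited scale, and relative to the median region the decreasing class lay lower, at a median of -0.68.

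**Figure D1:**
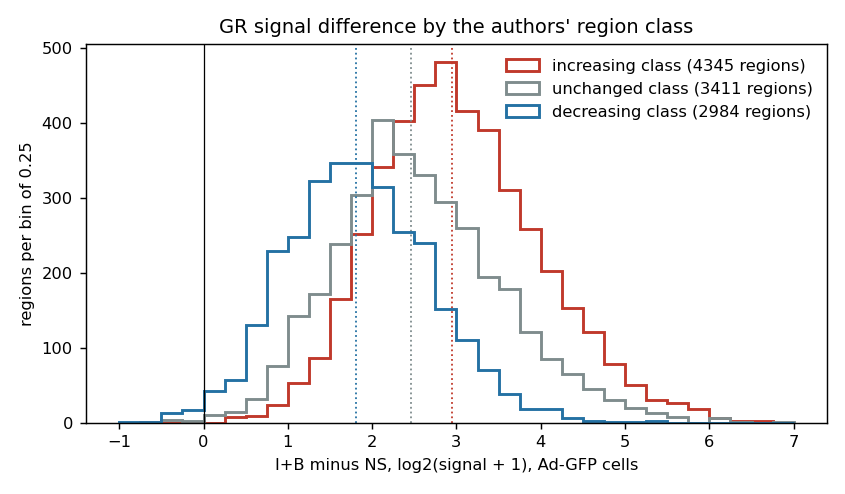
Histogram of the I+B minus NS difference per region in Ad-GFP cells (x axis, log2(signal + 1), bins of 0.25; y axis, regions per bin) for the increasing, unchanged and decreasing classes, with dotted lines at the class medians of 2.94, 2.46 and 1.81. Nearly all regions of every class lie right of 0, and the classes overlap widely.

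In Bud cells the same classes were set differently against NS cells, and both differences use the same NS values. The median signal in Bud cells was 6.90 in the increasing class, 31.8 in the unchanged class and 32.4 in the decreasing class. The median Bud minus NS difference was -0.06, 1.99 and 2.08 in that order of classes, and 57.9% of all regions were at least 2-fold higher in Bud cells than in NS cells and 8.14% at least 2-fold lower. Increasing regions were therefore at about the untreated level in Bud cells and had the highest median of the classes in I+B cells. If I+B and Bud values entered the rule behind the classes, this pattern follows in part from that rule. Decreasing regions had a median of 27.7 in I+B cells and 32.4 in Bud cells, both above the 7.33 of NS cells.

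Regions at promoters had somewhat more signal in both groups. The 404 regions within 1 kb of the transcription start site (TSS) of a protein-coding gene had a median of 64.4 in I+B cells and 8.95 in NS cells. Their median difference was 2.76, and 23.8% of them lay at least 2-fold above the median region. Exonic, intergenic and intronic regions had medians of 2.53, 2.50 and 2.43. Among promoter regions, the 213 of the increasing class had a median difference of 3.13 and the 48 of the decreasing class 1.80, so the order of the classes was the same there. By chromosome, the median difference was lowest on chromosome 17, at 2.35, and highest on chromosome 21, where 38.2% of the regions lay at least 2-fold above the median region. The median NS signal was 10.3 on chromosome 17 and 4.78 on chromosome 21, and the part of the NS signal in this was not tested.

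A region was assigned to a protein-coding gene when that gene's TSS was the nearest and within 100 kb, which gave 7574 linked regions, and 503 of them belonged to 172 of the 249 genes in 15 lists. A link by distance does not show that a region acts on the gene. Regions of the same gene are not independent of each other. As deposited, nearly all regions of every list were at least 2-fold higher in I+B cells, as 93.7% of all regions were, and so lists are described by their place relative to the median region.

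**Figure D2:**
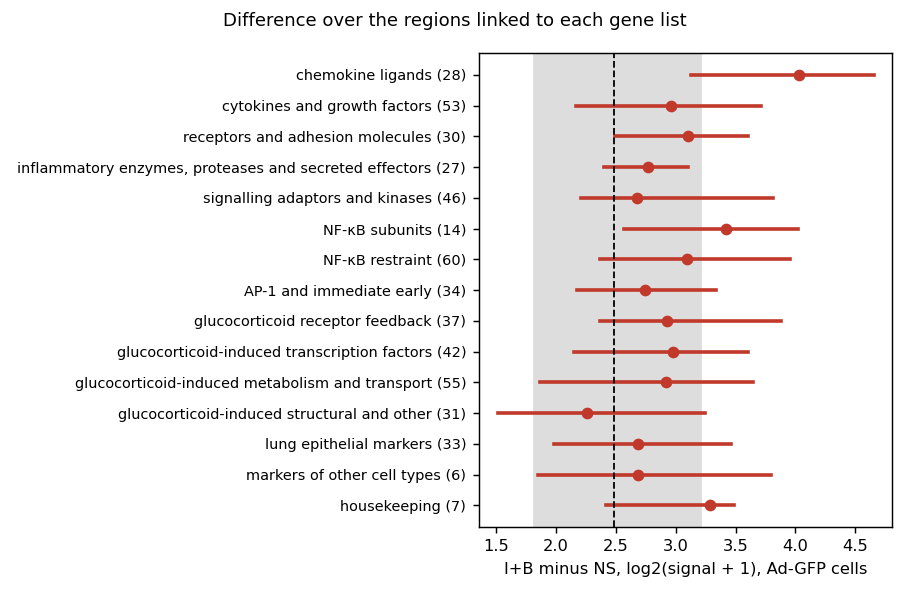
Median (points) and quartiles (bars) of the I+B minus NS difference, log2(signal + 1), over the regions linked to each gene list in Ad-GFP cells, with the number of regions in brackets; the dashed line and grey band give the median of 2.49 and the quartiles of all regions. Chemokine ligands have the highest median, 4.03, and the list of structural and other glucocorticoid-induced genes the lowest, 2.26.

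Chemokine ligands, the secreted proteins that draw leukocytes to inflamed tissue, had 28 regions linked to 10 of the 13 genes. Of these, 20 (71.4%) lay at least 2-fold above the median region, against 18.2% of all regions, and 0 at least 2-fold below. The list's median signal was 118 in I+B cells, 5.90 in Bud cells and 7.22 in NS cells, and its median difference was 4.03. At the promoter region of CXCL8, the neutrophil attractant interleukin-8, signal was 387 in I+B cells and 4.25 in NS cells, a difference of 6.21. All 6 regions linked to CXCL8 had more signal in I+B cells, between 26.1 and 387, against 2.55 to 7.23 in NS cells. Their differences ran between 1.72, in a region 4.56 kb downstream of the start, and 6.47, in a region 5.76 kb upstream, where it was 4.91 against untreated Ad-IκBαΔN cells.

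Other chemokine genes had lead regions of similar size. CX3CL1, the membrane-bound chemokine fractalkine, had 171 in I+B cells and 2.23 in NS cells, a difference of 5.73, or 4.29 against untreated Ad-IκBαΔN cells. CCL20, which attracts dendritic cells and lymphocytes through CCR6, had 217 in I+B cells, 177 in Bud cells and 4.78 in NS cells. The CCL20 region thus already stood far above the untreated value in Bud cells, unlike those of most chemokines named here. CCL2, the monocyte attractant, had 387 in I+B cells and 14.6 in NS cells, and CXCL5, a neutrophil attractant, had 169 in I+B cells and 5.01 in NS cells. The lowest lead differences of the list were 3.79 at CXCL1, with 162 in I+B cells and 10.8 in NS cells, and 2.45 at CCL5, with 62.9 in I+B cells and 10.7 in NS cells. At CXCL1 and CCL5 the Bud signals were 5.11 and 5.08, below the NS values.

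Cytokines and growth factors were more mixed. Of 53 regions linked to 18 of 22 genes, 19 (35.8%) lay at least 2-fold above the median region and 3 at least 2-fold below, and the median difference was 2.96. LIF, a cytokine of the interleukin-6 family, had 10 regions, all of the increasing class, with differences between 2.38 and 4.80, and 8 of them lay at least 2-fold above the median region. Its lead region had 194 in I+B cells and 7.87 in NS cells. CSF1, the macrophage growth factor, had 156 in I+B cells and 6.35 in NS cells, and IL1A, the alarmin related to IL1B, had 149 in I+B cells and 5.90 in NS cells. The TNF lead region had only 66.7 in I+B cells and 1.62 in NS cells, a difference of 4.69 that was 3.34 against untreated Ad-IκBαΔN cells. EDN1, the vasoconstrictor endothelin-1, had 12 regions, 7 of them of the decreasing class, and differences between 1.05 and 3.83. BMP2, a bone morphogenetic protein, had the lowest lead difference, 0.93, with 22.4 in I+B cells, 20.8 in Bud cells and 11.3 in NS cells.

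Receptors and adhesion molecules had 30 regions linked to 12 of 17 genes, of which 11 (36.7%) lay at least 2-fold above the median region and 2 below, with a median difference of 3.10. The region 3.11 kb upstream of EFNA1, a membrane-bound ephrin ligand, had 768 in I+B cells, 9.03 in Bud cells and 9.58 in NS cells. This difference of 6.18 was among the 10 highest of all linked regions. ICAM1, the adhesion molecule that leukocytes bind on activated cells, had 4 regions, all at least 2-fold above the median region, with differences between 3.51 and 4.79. Its lead region had 249 in I+B cells, 6.41 in Bud cells and 8.04 in NS cells. IFNGR2, a chain of the interferon-γ receptor, had 195 in I+B cells and 5.20 in NS cells. A different pattern was seen at IL6R, the interleukin-6 receptor, with 113 in I+B cells, 202 in Bud cells and 8.06 in NS cells, and at LTBR, the lymphotoxin β receptor, with 95.5 in I+B cells, 172 in Bud cells and 7.09 in NS cells. The LTBR region lies within both LTBR and SCNN1A, so its link to LTBR is by the nearer start site only. The cell surface receptor genes CD44 and EPHA2 had the lowest lead differences, 1.27 and 1.58.

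Inflammatory enzymes, proteases and secreted effectors had 27 regions linked to 14 of 19 genes. Only 5 (18.5%) lay at least 2-fold above the median region, a share near the 18.2% of all regions, and 1 below. All 5 were lead regions, of which these 14 genes have 1 each. The mean that picks a lead region includes its I+B value, so the choice favours this outcome. PTGS2, the cyclooxygenase that makes prostaglandins in inflammation, had 530.2 in I+B cells, 72.6 in Bud cells and 13.1 in NS cells, a difference of 5.24. C3, the central complement component, had 309 in I+B cells and 4.67 in NS cells at a region in an exon 9.81 kb from its start, a difference of 5.77. LCN2, an iron-scavenging antibacterial protein, had 149.6 in I+B cells and 5.10 in NS cells, and PLAU, the urokinase protease, had 172 in I+B cells and 7.25 in NS cells. HAS2, a hyaluronan synthase, had 142 in I+B cells, 139 in Bud cells and 4.67 in NS cells. At PLAUR, the urokinase receptor, the difference was 2.01, with 33.7 in I+B cells and 7.63 in NS cells.

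Genes of the NF-κB system and of signalling around it were grouped as signalling genes, subunits and inhibitors. The list of signalling adaptors and kinases also held GADD45A, GADD45B, TNFAIP2 and TNFAIP8, which are neither. It had 46 regions linked to 11 of 12 genes, 15 (32.6%) at least 2-fold above the median region and 4 below, with a median difference of 2.68. IRAK2, a kinase-like adaptor of the interleukin-1 receptor, had 8 regions, all of the increasing class, and 5 of them lay at least 2-fold above the median region. Their I+B signals were between 36.8 and 571, against 3.67 to 17.0 in NS cells, and their differences between 2.39 and 5.64. The promoter region of TRAF3, an adaptor that restrains the alternative NF-κB pathway, had 95.8 in I+B cells and 0.41 in NS cells. That difference of 6.10 rests on a very low NS value and was 4.26 against untreated Ad-IκBαΔN cells, which had 4.07 there. GADD45B, a stress-response protein, had 25.5 in I+B cells, 59.2 in Bud cells and 7.00 in NS cells, a difference of 1.73.

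NF-κB subunit genes had 14 regions linked to 5 of 6 genes, of which 7 lay at least 2-fold above the median region and 1 below, with a median difference of 3.42. NFKB2, which encodes the p100 precursor, had 582 in I+B cells, 10.7 in Bud cells and 11.2 in NS cells at its promoter region. The promoter region of NFKB1, which encodes the p105 precursor, had 208 in I+B cells, 4.87 in Bud cells and 7.54 in NS cells. At REL and RELB, both transactivating subunits, the promoter regions had 128 and 98.1 in I+B cells and 14.2 and 16.6 in NS cells. In Bud cells the signal at NFKB2, NFKB1 and RELB did not exceed the NS value, and at REL it was 14.7 against 14.2. BCL3, an atypical IκB protein that binds NF-κB dimers in the nucleus, had 7 regions with differences between 1.78 and 4.16.

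Genes that restrain NF-κB had 60 regions linked to 14 of 16 genes, 24 (40.0%) at least 2-fold above the median region and 4 below, and a median difference of 3.09. NFKBIA, which encodes IκBα, had 614 in I+B cells, 871 in Bud cells and 14.5 in NS cells near its promoter, a difference of 5.31. The authors placed this region in the decreasing class. The other 8 regions linked to NFKBIA had between 29.6 and 298 in I+B cells, against 6.57 to 12.8 in NS cells. TNFAIP3, the ubiquitin-editing enzyme A20, had 462 in I+B cells, 56.0 in Bud cells and 6.92 in NS cells at its lead region, and differences between 1.28 and 5.87 over its 9 regions. IRAK3, an inactive kinase that dampens interleukin-1 receptor signalling, had 358 in I+B cells and 14.2 in NS cells at its start site, and BIRC3, a ubiquitin ligase, had 213 in I+B cells, 211 in Bud cells and 4.23 in NS cells. At these genes the regions thus included some with high signal in Bud cells and some without.

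The list also held the lowest difference of all linked regions. A region 1.12 kb upstream of BIRC2, a ubiquitin ligase related to BIRC3, had 88.8 in I+B cells, 28.5 in Bud cells and 140.8 in NS cells, a difference of -0.66. Untreated Ad-IκBαΔN cells had 7.69 at that region. Against them the I+B difference was 3.37, so the direction at BIRC2 depends on which untreated group is used.

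Genes of AP-1 subunits and of other immediate early factors had 34 regions linked to 13 of 22 genes, 8 (23.5%) at least 2-fold above the median region and 1 (2.94%) below, with a median difference of 2.74. KLF4, a zinc finger factor, had 453 in I+B cells, 33.0 in Bud cells and 7.48 in NS cells. The small MAF proteins MAFK and MAFF, which pair with larger basic leucine zipper factors, had 348 and 131 in I+B cells and 5.71 and 1.42 in NS cells. The MAFF difference of 5.77 was 4.14 against untreated Ad-IκBαΔN cells. BATF, a basic leucine zipper factor of immune cells, had 205 in I+B cells, 334 in Bud cells and 9.15 in NS cells. FOSL2, an AP-1 subunit, had 57.5 in I+B cells and 22.7 in NS cells, a difference of 1.30 that was 2.97 against untreated Ad-IκBαΔN cells, where the signal was 6.44.

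Genes known to be targets of glucocorticoids made up 4 lists. On the deposited scale, many of the lead regions named from them had less signal in I+B cells than in Bud cells. The list around GR feedback had 37 regions linked to 10 of 17 genes, 12 (32.4%) at least 2-fold above the median region and 2 below, with a median difference of 2.93. DUSP1, the phosphatase that switches off MAP kinases, had 367 in I+B cells, 286 in Bud cells and 9.38 in NS cells. ZFP36, the RNA-destabilising protein tristetraprolin, had 451 in I+B cells, 997 in Bud cells and 19.9 in NS cells. FKBP5, a co-chaperone that lowers the affinity of GR for hormone, had 239.5 in I+B cells, 455 in Bud cells and 8.10 in NS cells. ERRFI1, an inhibitor of the EGF receptor, had 114 in I+B cells, 183 in Bud cells and 2.86 in NS cells. At the gene of GR itself, NR3C1, an intronic region had 62.7 in I+B cells, 4.49 in Bud cells and 5.51 in NS cells.

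Transcription factor genes induced by glucocorticoids had 42 regions linked to 13 of 15 genes, 13 (31.0%) at least 2-fold above the median region and 3 below, with a median difference of 2.97. KLF9, a Krüppel-like factor, had 177 in I+B cells, 249.9 in Bud cells and 11.7 in NS cells, and CEBPD, a C/EBP factor, had 133 in I+B cells, 186 in Bud cells and 6.11 in NS cells. PER1, a clock component, had 109.9 in I+B cells, 224 in Bud cells and 12.8 in NS cells. HIF3A, a hypoxia-inducible factor subunit, had 116 in I+B cells, 368 in Bud cells and 8.28 in NS cells. KLF15, a Krüppel-like factor of metabolism, had 19.1 in I+B cells, 19.2 in Bud cells and 9.21 in NS cells, a difference of 0.98.

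Metabolism and transport genes induced by glucocorticoids had 55 regions linked to 19 of 21 genes, 15 (27.3%) at least 2-fold above the median region and 7 (12.7%) below. DDIT4, an inhibitor of mTOR signalling, had 217 in I+B cells, 386 in Bud cells and 4.23 in NS cells, and its 8 regions had differences between 2.71 and 5.38. NNMT, which methylates nicotinamide, had 222 in I+B cells, 469 in Bud cells and 6.40 in NS cells. That region lies 78.4 kb from the NNMT start, in an intron of ZBTB16. MT2A, a metallothionein, had 263 in I+B cells, 133 in Bud cells and 9.18 in NS cells. A region linked to SCNN1A, a subunit of the epithelial sodium channel, had 165 in I+B cells, 3.68 in Bud cells and 9.03 in NS cells, and so had a pattern more like that at NFKB2 than at DDIT4. This region lies in an exon of LTBR, so the link by distance leaves unclear to which gene it belongs. GLUL, glutamine synthetase, had 13.0 in I+B cells, 22.0 in Bud cells and 8.17 in NS cells. TAT, tyrosine aminotransferase, had 5 regions, all of the decreasing class, with differences between 0.45 and 2.96 and 3 of them at least 2-fold below the median region.

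The structural and other glucocorticoid-induced genes were the only list with a median under that of all regions. Of 31 regions linked to 11 of 14 genes, 6 (19.4%) lay at least 2-fold above the median region and 6 (19.4%) at least 2-fold below, and the median difference was 2.26. STOM, a membrane scaffold protein, had 153 in I+B cells, 209 in Bud cells and 8.10 in NS cells. FGD4, an activator of the GTPase CDC42, had 7 regions with differences between 0.34 and 3.53, of which 3 lay at least 2-fold below the median region. SYT7, a calcium sensor of membrane fusion, had 58.9 in I+B cells and 2.02 in NS cells, and its difference of 4.31 was 2.72 against untreated Ad-IκBαΔN cells.

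**Figure D3:**
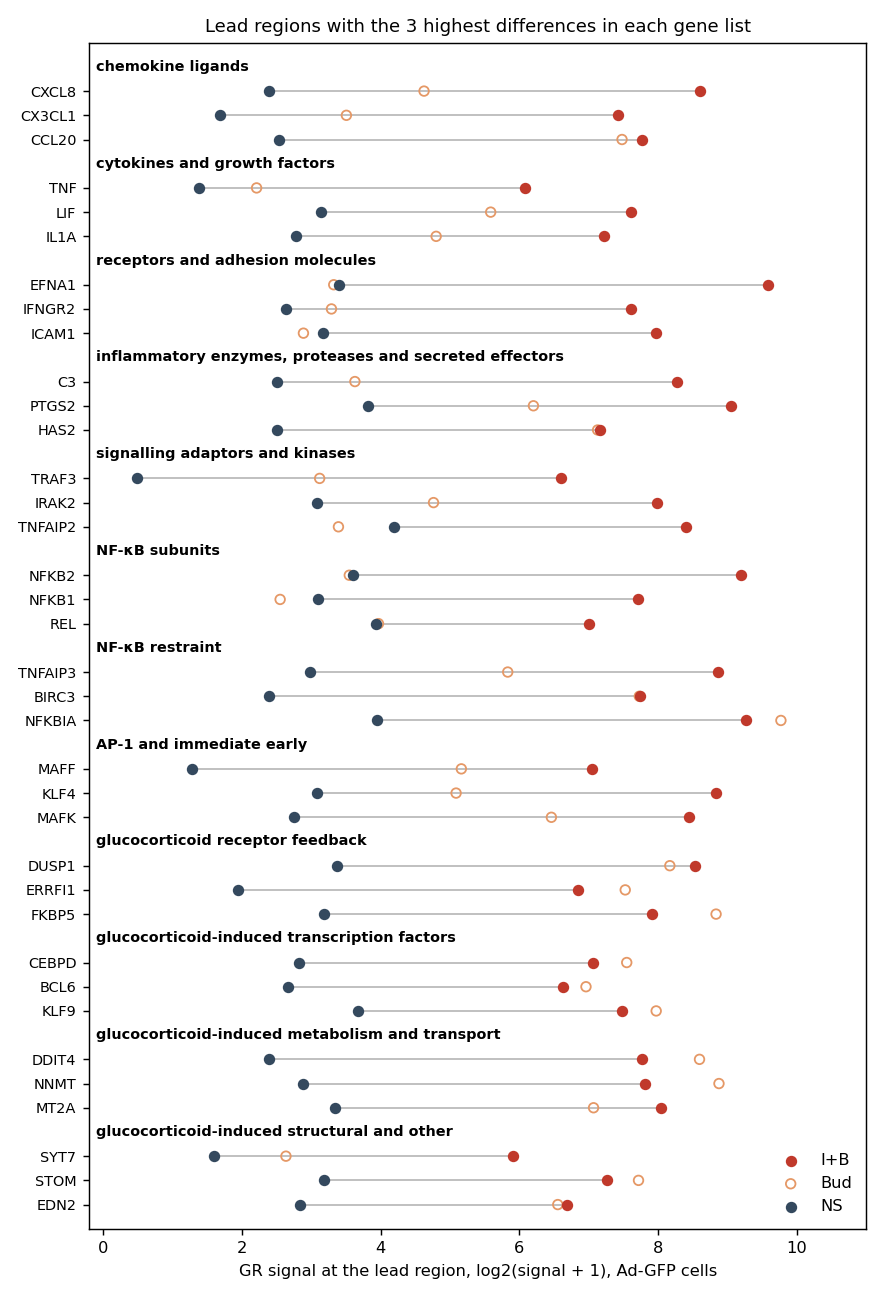
GR signal in Ad-GFP cells (x axis, log2(signal + 1)) at the lead region of the genes with the 3 highest differences in each list, with filled red points for I+B, open points for Bud and filled dark points for NS cells. Every I+B point lies right of its NS point, whereas Bud points lie near NS at genes such as NFKB2 and EFNA1 and right of I+B at genes such as FKBP5 and DDIT4.

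The remaining lists held lung epithelial markers, markers of other cell types and housekeeping genes. Lung epithelial markers had 33 regions linked to 14 of 24 genes, 7 (21.2%) at least 2-fold above the median region and 3 below. KRT18, a keratin of simple epithelia, had the highest lead difference of the list, 4.48, with 227 in I+B cells, 294 in Bud cells and 9.18 in NS cells. The lowest were 1.70 at MUC5AC, with 53.9 in I+B cells and 15.9 in NS cells, and 1.41 at CDH1, with 20.1 in I+B cells and 6.97 in NS cells. Markers of other cell types had 6 regions linked to 4 of 16 genes, of which 2 (33.3%) lay at least 2-fold above the median region and 1 below, with a median difference of 2.68. Housekeeping genes had 7 regions linked to 4 of 15 genes, of which 2 (28.6%) lay at least 2-fold above and 1 below. The housekeeping median of 3.29, from few regions, was above those of the cytokine, NF-κB restraint and GR feedback lists, so a median above that of all regions is not particular to the inflammatory or glucocorticoid lists. GR signal at a gene does not show that the gene is expressed, so these counts cannot check the cell type, and its part in the results was not tested.

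Over all linked regions, the highest difference was 6.95, in an intron of USP40, a deubiquitinase, where the signal was 553 in I+B cells and 3.47 in NS cells. Against untreated Ad-IκBαΔN cells the USP40 difference was 5.83, below the 6.90 of the FSTL3 region described above, so its place as the highest depends on the untreated group. A region 44.7 kb from PNRC1, a nuclear receptor coregulator, had 380.5 in I+B cells and 2.65 in NS cells. An exonic region of TNFAIP2, a TNF-induced protein that shapes membrane protrusions, had 548 in I+B cells, 8.37 in Bud cells and 4.80 in NS cells, a difference of 6.56. Of the 10 highest, 8 were of the increasing class. The other two were USP40 and a region linked to PRR20G, with 505 in I+B cells, 1492 in Bud cells and 4.79 in NS cells, and in Ad-IκBαΔN cells that region had 1150.2 with I+B and 6.46 in NS cells.

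Among linked regions, the lowest differences lay mostly where the signal was low in both groups. The lowest of all 10740 regions, -0.77, had no protein-coding TSS within 100 kb. After BIRC2, the lowest linked regions were -0.57 in an intron of GGACT, with 4.84 in I+B cells, 11.7 in Bud cells and 7.69 in NS cells, and -0.49 at a region linked to CRYBB3, with 6.69 in I+B cells, 17.8 in Bud cells and 9.82 in NS cells. At IQGAP2, a scaffold of the actin cytoskeleton, an intronic region had 7.25 in I+B cells, 33.8 in Bud cells and 9.84 in NS cells. Of the 10 lowest linked regions, 8 were of the decreasing class, and none of the 10 was at least 2-fold lower in I+B cells.

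Motif content differed along the difference. Regions were sorted into quintiles, the lowest with differences up to 1.66 and the highest with differences of 3.41 or more. From the lowest to the highest quintile, a GRE with at most 2 mismatches was found in 24.2%, 16.2%, 13.0%, 11.0% and 9.17% of regions, against 2.73% of windows 5 kb away. The κB motif was found in 9.82%, 16.4%, 23.0%, 26.6% and 30.7% of regions, against 3.81% of the windows. The AP-1 motif, TGACTCA or TGAGTCA, was found in 19.1%, 20.6%, 22.7%, 25.4% and 26.0%, against 6.92% of the windows. The Wilson 95% intervals of the lowest and highest quintiles did not overlap for these motifs, for example 22.4% to 26.0% and 8.02% to 10.5% for the GRE. Such intervals cover counting error only, and neighbouring regions are not independent.

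**Figure D4:**
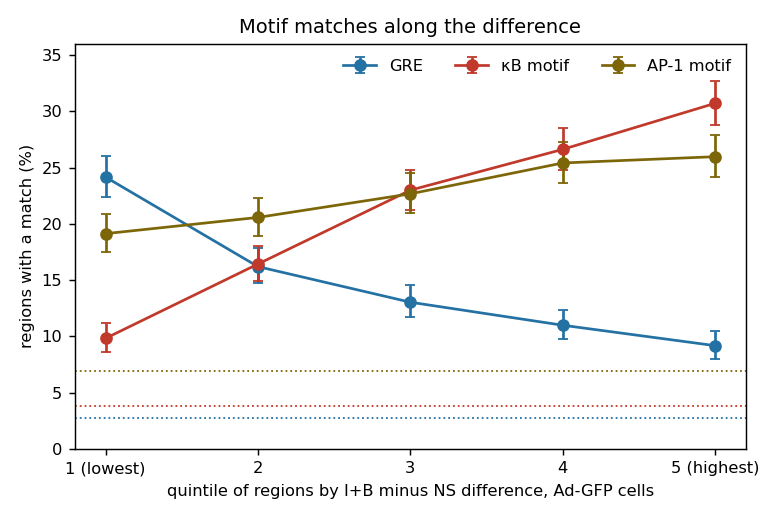
Share of regions with a match to the GRE, the κB motif or the AP-1 motif (y axis, percent) in quintiles of regions by the I+B minus NS difference in Ad-GFP cells (x axis, lowest to highest), with Wilson 95% intervals; dotted lines give the share in windows 5 kb away. The GRE share is 24.2% in the lowest quintile and 9.17% in the highest, and the κB share 9.82% and 30.7%.

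The FOXA and TEAD motifs had about the same share at both ends of the difference, and the C/EBP motif a higher one in the highest quintile. The FOXA motif, TGTTTAC or TGTTTGC, was found in 24.7% of regions both in the lowest and in the highest quintile. The TEAD motif, GGAATGC or GGAATGT, was found in 17.6% and 17.7%. The C/EBP motif, TTGCNNAA, was found in 25.9% in the lowest and 32.9% in the highest, a gap of much the same size as that of AP-1. All 3 were searched on both strands without a mismatch, as were κB and AP-1.

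Seen from the motifs, the 2290 regions with a κB match had a median difference of 2.84, and the 8450 without had 2.38. Their median signal was 59.8 and 42.2 in I+B cells, 5.88 and 26.6 in Bud cells, and 7.80 and 7.53 in NS cells. The 1580 regions with a GRE had a median difference of 2.11 and the 9160 without had 2.55. Regions whose best GRE match had 0, 1, 2, 4 and 5 mismatches had median differences of 1.92, 2.03, 2.14, 2.59 and 2.72, so that a better match went with a smaller difference. Median I+B signal was 26.9 with 0 mismatches and 59.0 with 5, while median NS signal was 6.17 and 8.21.

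The authors' classes differ in motif content. The κB motif was found in 40.3% of increasing, 11.8% of unchanged and 4.49% of decreasing regions, and the GRE in 7.18%, 18.6% and 21.3%. Within the increasing class, regions with a κB match had a median difference of 3.00 and those without had 2.91. Within the unchanged class the medians were 2.35 with a κB match and 2.48 without, the opposite order. In the decreasing class, regions with a κB match had 2.13 and those without 1.80. Regions with a GRE had the lower median in every class, with 2.82 against 2.95 without in the increasing, 2.23 against 2.52 in the unchanged and 1.62 against 1.86 in the decreasing class. GC content correlated with the difference at r = 0.11 (rho = 0.09) over the 10740 regions, and its part in the motif shares was not tested.

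The same I+B minus NS difference was taken in cells given Ad-IκBαΔN, in which none of the groups is shared with the Ad-GFP comparison. There 69.1% of regions were at least 2-fold higher in I+B cells than in NS cells and 0.0466% at least 2-fold lower. The median difference was 2.49 in Ad-GFP cells and 1.48 in Ad-IκBαΔN cells, and the scale between these pairs of groups is not known. In the increasing class the medians were 2.94 in Ad-GFP cells and 0.86 in Ad-IκBαΔN cells, in the unchanged class 2.46 and 1.94, and in the decreasing class 1.81 and 1.86. The class with the highest median difference in Ad-GFP cells therefore had the lowest in Ad-IκBαΔN cells, an order that a common shift of all differences within a virus leaves as it is. If values of these GR groups or of Bud cells entered the rule behind the classes, this order follows in part from that rule. In the increasing class 4302 of 4345 regions were at least 2-fold higher in I+B cells with Ad-GFP and 1816 with Ad-IκBαΔN, and in the decreasing class 2493 and 2659 of 2984.

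**Figure D5:**
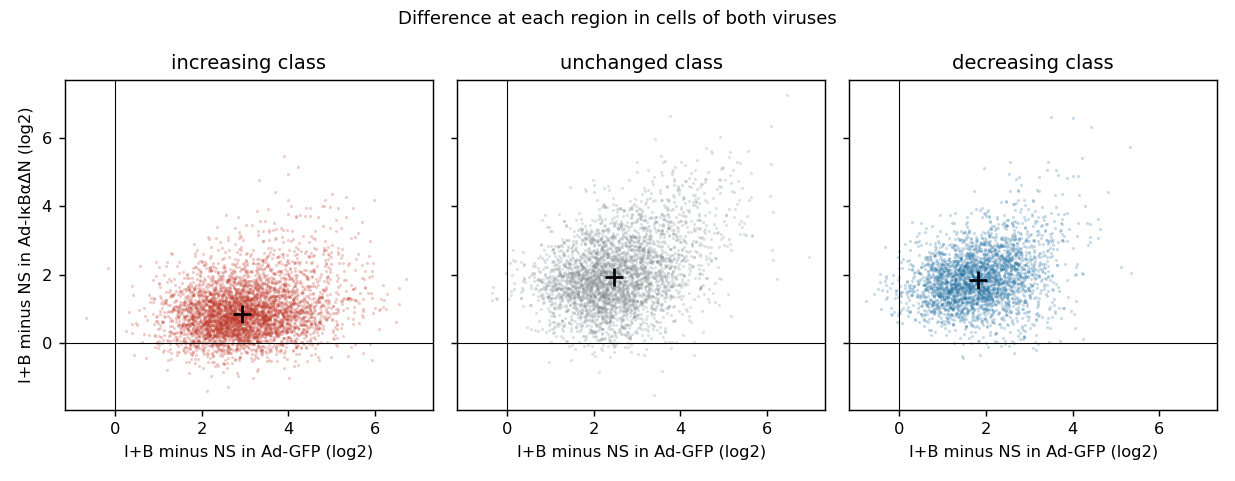
The I+B minus NS difference per region, log2(signal + 1), in Ad-GFP cells (x axis) and in Ad-IκBαΔN cells (y axis), with a panel for each class and a cross at the medians. The cross is at 2.94 and 0.86 in the increasing class, 2.46 and 1.94 in the unchanged class, and 1.81 and 1.86 in the decreasing class.

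Region by region the differences in the 2 viruses were hardly related over the table, with r = 0.05 (rho = -0.04) over 10740 regions. Within the increasing, unchanged and decreasing classes r was 0.21, 0.37 and 0.27. The points within a virus share the regions' sequence and mappability, and no p-value is given. The I+B levels of the viruses correlated at r = 0.17 and the NS levels at r = 0.29.

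On the deposited scale, all 15 gene lists had a lower median difference in Ad-IκBαΔN cells than in Ad-GFP cells. All regions together did so too, with medians of 1.48 and 2.49. Against that 1.48, the glucocorticoid, lung epithelial and housekeeping lists lay above the median region in Ad-IκBαΔN cells, and the other lists below it. The structural list thus lay below the median region in Ad-GFP cells and above it in Ad-IκBαΔN cells. Chemokine ligand regions had a median difference of 4.03 in Ad-GFP cells and 1.02 in Ad-IκBαΔN cells, and NF-κB subunit regions 3.42 and 1.45. For the metabolism and transport list the medians were 2.92 in Ad-GFP cells and 2.52 in Ad-IκBαΔN cells, and for the structural list 2.26 and 1.97. The GR feedback list had 2.93 in Ad-GFP cells and 2.05 in Ad-IκBαΔN cells. The 7 housekeeping regions had 3.29 in Ad-GFP cells and 1.70 in Ad-IκBαΔN cells, and the 6 regions of other cell type markers 2.68 and 0.60. A gap near that of the NF-κB subunit regions was thus also seen, from few regions, outside the inflammatory lists. The chemokine gap was the widest of all lists. At the CXCL8 promoter the difference was 6.21 in Ad-GFP cells and 1.25 in Ad-IκBαΔN cells, where the signal was 17.7 with I+B and 6.85 in NS cells. At EFNA1 the differences were 6.18 in Ad-GFP cells and 1.07 in Ad-IκBαΔN cells, and at NFKB2 5.58 and 1.23. At the glucocorticoid target FKBP5 the difference was 4.72 in Ad-GFP cells and 5.57 in Ad-IκBαΔN cells, and at DDIT4 it was 5.38 and 5.28. In bulk chromatin, fewer cells bound by GR and less GR at each cell's site cannot be told apart.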

How the data were processed

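The authors deposited a log2 binding intensity, 1 value per region and group, at 10740 regions of 400 bp in hg38, with the authors' region class. Tools listed in the submitters' processing notes were DiffBind 3.2, MACS2 2.2.7.1, Bowtie2 2.4.4, FastQC 0.10.1, SAMtools and bcl2fastq. The tool that made the intensities, the merging of libraries and the scaling are not given in the sources used here. Library depth is unknown. With signal taken as 2 to the power of the value, minus 1, its product with 400 fell on whole steps, within 0.0001, in I+B (step 3, all 10740 regions) and NS (step 1, 10739 regions) Ad-GFP cells. The step was 1 in Bud Ad-GFP cells and 1.5 in I+B Ad-IκBαΔN cells, and none was found in NS Ad-IκBαΔN cells (0 regions). On that ground the deposited value was taken to be log2(signal + 1) of mean coverage. For NS Ad-IκBαΔN cells this reading is assumed. Ad-IκBα in the table was taken as the labels' Ad-IκBαΔN.

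Differences, medians and counts past 2-fold were computed with Python 3.11.15, numpy 2.4.6, pandas 2.3.3 and pysam 0.24.0. The counting was tested on simulated data with planted shifts past the cutoff, which checks the counting only and not the calls in these data. Places and links to protein-coding genes, by nearest TSS within 100 kb, used GENCODE 44, and motifs were searched on both strands of hg38. Flanking windows had the regions' width and lay 5 kb to either side. Named genes were, per list, up to 5 with the highest and up to 2 with the lowest lead difference, plus the 10 highest and 10 lowest linked regions and the 3 highest I+B and NS signals. Genes described over all their regions have 4 or more of them. PER1, TAT, FGD4 and the individual repeat windows were named after their values were seen. Members and lists were chosen with earlier results of these data known. Alternatives were other scalings, a pseudocount of 4, a filter on low regions, 4-fold calls, links within 20 kb, other motif settings and the other untreated group. Libraries of RELA and of input were not used here.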

Additional observations from a re-analysis of the deposited data

How the results depend on the processing

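No difference has an error, since replicates, depth and the scale between groups are all unknown here. No paired analysis was possible because the table holds 1 combined value per region and group, so no replicate could be left out either. The 10066 regions that were 2-fold higher in I+B cells and the 0 that were 2-fold lower became 2072 and 1559 after re-centring to a common median, 2118 and 1502 after centring on the unchanged class, 1709 and 1723 after quantile normalization, and 5229 and 141 after division by the step. Relative to the median region, the increasing class had 0.45, or 0.36 after quantile normalization and 0.67 without the lowest 25% of regions. The unchanged class had -0.03, or 0.053 without those regions. The decreasing class had -0.68, or -0.56 after quantile normalization and -0.63 with log2(signal + 4). The chemokine median, 1.55 above the median region, was 2.05 without the lowest 25%.

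With at most 1 mismatch the GRE share was 6.24% in the lowest quintile and 1.40% in the highest. In the central 200 bp the share in the highest quintile was 7.50% for the GRE, 27.0% for κB and 17.3% for AP-1, and in the lowest quintile 12.8% for AP-1. With untreated Ad-IκBαΔN cells as the untreated group, an alternative chosen after seeing the data, the lowest quintile had 26.4% GRE, 8.29% κB and 17.0% AP-1, and the highest 33.1% κB. Against that group BIRC2 and FOSL2 lay 0.95 and 0.55 above the median region, not below it, and the cause was not tested. Taking as limits 1.5 times for a count and the 95% interval of the reported value for a median or share, 141 of 165 alternatives to 28 such results stayed within them and 24 lay outside. Many of the 165 are gene list medians with wide intervals over few regions. The NF-κB subunit interval ran from -0.61 to 1.68, so a change from 0.93 to 0.26 after quantile normalization stayed within it. The count of 0 at least 2-fold lower could only stay 0 at 4-fold. Intervals of this kind treat regions as independent, so the tally does not measure stability. The unchanged-class median above, close to 0, changed sign. For named genes and regions, 664 of 723 alternatives kept their sign and side of 2-fold relative to the median region, 55 did not, and 4 changed sign from at least 2-fold. Regions named under several headings, among them those of BIRC2, CXCL8 and EFNA1, were counted anew under each. The 4 changes of sign come from the BIRC2 and FOSL2 regions only.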

Other observations

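Regions with high signal in untreated cells formed a small group. Of the 10740 regions, 17 had an NS signal of 30 or more in Ad-GFP cells, and 11 of them lay in a 66.6 kb stretch of chromosome 17 (chr17:43233636-43300276), in introns of CCDC200. All 12 regions of that stretch were of the unchanged class. Their signal was 125 to 190 in I+B cells and 29.0 to 45.1 in NS cells, and 12.9 to 19.5 in untreated Ad-IκBαΔN cells. Their differences ran between 1.84 and 2.38, a narrower range than the quartiles of all regions, and the stretch was chosen after the values were seen. The highest NS signals were 278 at a region linked to PLEKHG4B, with 411 in I+B cells, and 158 at a region linked to TUBB8, with 369 in I+B cells. These regions start at chr5:11492 and chr10:10117, near the chromosome ends, and untreated Ad-IκBαΔN cells had 282 and 149 there.

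Neighbouring regions were no more alike in their difference than distant ones. Between successive regions under 5 kb apart (1503 pairs) the median absolute gap in the difference was 0.93, and between those over 100 kb apart (4535 pairs) it was 0.92. The share of pairs in the same class was 54.0% and 36.4%.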
